A study of Mus musculus with 12 samples.

Results

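Accessible chromatin was examined here at 10 chemokine ligand genes, Ccl2, Ccl3, Ccl4, Ccl5, Ccl7, Ccl12, Cxcl1, Cxcl2, Cxcl10 and Cxcl16. The members were all ATAC-seq peaks whose nearest gene, as named in the tables, was one of these, which gave 42 of 60288 peaks in untreated mice and 40 of 54953 peaks after LPS, with each gene holding at least 1 peak in both tables. The study compared grafted cells and host microglia sorted from the brains of bone marrow chimeras. Recipients were wild-type C57BL/6J mice irradiated with 950 cGy and given congenic wild-type CD45.1 bone marrow, and the labels allow either 3.5 or 9 months before harvest without saying which mouse had which, while the study's text gives 9 months. The CD45.1 cells descend from the graft and the CD45.2 cells are host microglia. Replicates 4, 5 and 6 came from untreated mice, and replicates 1, 2 and 3 from mice that received 2.5 mg/kg of the bacterial endotoxin lipopolysaccharide (LPS) 12 h before harvest, so that the 12 libraries form 4 groups of 3. All 4 groups share the irradiation and the graft.

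Chemokines are small secreted proteins that draw leukocytes along a gradient by way of G-protein-coupled receptors. In mice, Cxcl1 and Cxcl2 attract neutrophils through Cxcr2. Ccl2, Ccl7 and Ccl12 attract monocytes through Ccr2, while Ccl3, Ccl4 and Ccl5 attract monocytes and T cells. Cxcl10 attracts T cells through Cxcr3 and is a classical interferon and NF-kappaB target, and Cxcl16 is made as a membrane-bound ligand of Cxcr6. In ATAC-seq a transposase cuts open DNA, so the number of tags in a peak reports how accessible the site was and not how much RNA was made.

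The sequences that carry the main differences and the promoters with a motif are printed below, on the forward strand of mm9, in windows of up to 200 bp around a peak, with exons left out. Capitals mark matches to AP-1 (TGANTCA), to CEBP (TTGCNNAA), to the interferon-stimulated response element ISRE (GAAANNGAA), to PU.1 (GAGGAAGT) or to NF-kappaB, all searched on both strands. Distances are from the gene's start site, negative upstream. The first 6 are sites that differed between the populations. The remaining 4 are promoters with a motif.
Cxcl2 -6274 (chr5:91326552-91326751, intergenic): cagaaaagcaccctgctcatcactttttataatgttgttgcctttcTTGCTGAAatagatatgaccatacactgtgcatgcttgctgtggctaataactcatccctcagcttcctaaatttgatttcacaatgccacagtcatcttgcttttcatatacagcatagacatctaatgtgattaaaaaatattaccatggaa
Cxcl2 promoter -210 (chr5:91332616-91332815): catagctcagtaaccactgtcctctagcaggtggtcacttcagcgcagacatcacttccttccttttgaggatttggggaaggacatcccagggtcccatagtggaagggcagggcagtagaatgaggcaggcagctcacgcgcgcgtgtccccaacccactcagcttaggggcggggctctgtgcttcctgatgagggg
Cxcl1 -9356 (chr5:91310816-91311015, intergenic): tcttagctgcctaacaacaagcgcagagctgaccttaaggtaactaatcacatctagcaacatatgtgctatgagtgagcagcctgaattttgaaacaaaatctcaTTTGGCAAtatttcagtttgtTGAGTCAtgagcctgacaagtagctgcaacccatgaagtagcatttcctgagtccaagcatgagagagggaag
Cxcl1 -29187 (chr5:91290985-91291184, intergenic): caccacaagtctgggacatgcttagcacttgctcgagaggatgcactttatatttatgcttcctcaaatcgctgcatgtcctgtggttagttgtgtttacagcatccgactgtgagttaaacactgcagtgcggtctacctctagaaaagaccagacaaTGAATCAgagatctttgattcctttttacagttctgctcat
Ccl4 +13310 (chr11:83489297-83489496, intergenic): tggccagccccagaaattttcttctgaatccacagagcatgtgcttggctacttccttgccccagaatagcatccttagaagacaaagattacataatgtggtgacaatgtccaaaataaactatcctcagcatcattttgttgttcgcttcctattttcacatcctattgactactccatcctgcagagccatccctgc
Ccl5 -19791 (chr11:83363712-83363911, intergenic): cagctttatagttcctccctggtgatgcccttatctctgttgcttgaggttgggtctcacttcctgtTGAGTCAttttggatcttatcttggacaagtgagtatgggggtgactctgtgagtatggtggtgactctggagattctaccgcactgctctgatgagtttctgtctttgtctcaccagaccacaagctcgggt
Cxcl10 promoter -80 (chr5:92777916-92778095): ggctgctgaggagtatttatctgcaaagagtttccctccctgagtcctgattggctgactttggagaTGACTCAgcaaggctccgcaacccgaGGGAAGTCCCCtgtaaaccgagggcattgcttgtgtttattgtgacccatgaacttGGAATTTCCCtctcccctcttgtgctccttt
Ccl4 promoter -156 (chr11:83475831-83476030): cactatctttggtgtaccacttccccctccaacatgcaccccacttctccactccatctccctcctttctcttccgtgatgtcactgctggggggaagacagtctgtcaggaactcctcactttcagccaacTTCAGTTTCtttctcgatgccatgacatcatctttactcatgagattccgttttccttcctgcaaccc
Ccl12 promoter -209 (chr11:81915039-81915238): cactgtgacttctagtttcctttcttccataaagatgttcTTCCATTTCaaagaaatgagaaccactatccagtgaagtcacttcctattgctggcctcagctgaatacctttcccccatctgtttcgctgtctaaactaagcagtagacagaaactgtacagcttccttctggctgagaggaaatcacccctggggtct
Ccl5 promoter -81 (chr11:83344021-83344201): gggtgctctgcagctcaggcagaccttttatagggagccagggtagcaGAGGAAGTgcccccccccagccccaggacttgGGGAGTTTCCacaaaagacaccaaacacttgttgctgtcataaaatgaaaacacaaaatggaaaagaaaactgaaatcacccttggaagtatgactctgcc

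The Cxcl2 −6274 window held 1 CEBP match, the Cxcl1 −9356 window 1 AP-1 and 1 CEBP match, and the Cxcl1 −29187 and Ccl5 −19791 windows 1 AP-1 match each. The Cxcl10 promoter held 3 NF-kappaB matches, of which the first pair overlap, and 1 AP-1 match. The Cxcl2 promoter and Ccl4 +13310 windows held none of the 5 motifs, which says only that these letters are not in the window. Over all chemokine windows, an AP-1 match was present in 10 of 42 untreated and 13 of 40 LPS windows, beside 8.11% and 13.4% of all windows of that table. An NF-kappaB match was present in 6 of 42 and 5 of 40 windows, beside 6.00% and 6.96% of all windows. CEBP matched 8 and 5 chemokine windows (all windows, 9.82% and 12.2%), ISRE 6 and 6 (8.34% and 7.54%) and PU.1 5 and 4 (9.45% and 8.72%).

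The libraries held 8392877.5 to 9107770 tags in untreated and 2966364 to 6556594.5 tags in LPS mice, with a median of 16 to 35 and 8 to 23.5 tags per merged peak. The untreated CD45.2 library of replicate 4 stood apart, with 9.30% of its tags in its own peaks against 17.65% to 27.24% in the other untreated libraries, so untreated counts are also given without it. Sall1, a microglial transcription factor, was open in CD45.2 and lower in CD45.1 (1042 ± 65.2 against 111 ± 82.4 normalized tags over its peaks, SD, n = 3). Of marker genes of macrophages of bone marrow origin, 5 of 7 were higher in untreated CD45.1 and 4 of 7 after LPS, and of microglial markers 2 of 9 and 1 of 9 were higher in CD45.2. Neuronal markers were higher in CD45.2, 3 of 3 untreated and 2 of 3 after LPS, with summed levels of 171 to 202 against 27.5 to 39.4 tags untreated. In untreated mice, 1 B cell marker of the 1 with a peak was higher in CD45.1, T cell markers split 1 and 1, 2 of 4 astrocyte and 1 of 4 oligodendrocyte markers were higher in CD45.2, and none of 3 endothelial markers passed the test. After LPS the B cell marker was higher in CD45.1, 1 oligodendrocyte marker of 3 was higher in CD45.2, and no T cell, astrocyte or endothelial marker passed. Of all genes, 7.35% were higher in CD45.1 and 7.46% in CD45.2 untreated, and 4.08% and 2.98% after LPS.

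The strongest contrast lay at the neighbouring Cxcl1 and Cxcl2 genes, which were more accessible in grafted cells in both conditions. Summed over its 5 untreated peaks, Cxcl2 had 171, 135 and 197 normalized tags in CD45.1 (replicates 4, 5 and 6) and 81.8, 62.1 and 86.0 in CD45.2. Every CD45.1 library was above every CD45.2 library, and the difference was 2.20-fold (SE 0.20 on the log2 scale, adjusted p = 6.73e-07, DESeq2 Wald test with Benjamini-Hochberg adjustment over all genes). Cxcl1 had 92.3, 92.2 and 103 tags in CD45.1 against 30.8, 27.5 and 26.2 in CD45.2, a log2 fold change of 1.79 (SE 0.26, adjusted p = 4.01e-10).
After LPS the gap was again seen. Cxcl2 had 220, 215 and 231 tags over 6 peaks in CD45.1 (replicates 1, 2 and 3) and 92.5, 89.1 and 65.5 in CD45.2 (log2 fold change 1.46, SE 0.20, adjusted p = 4.20e-11). Cxcl1 had 74.5, 121 and 107 against 34.4, 28.8 and 30.4 (log2 fold change 1.69, SE 0.28, adjusted p = 1.24e-07). The groups did not overlap for either gene in either condition, and both genes passed under each alternative tried that gave a value. The limit of over 4-fold was applied to counts of peaks only, and none of these sums reached 4-fold. The sums include sites that only CD45.1 lists held. Untreated these were Cxcl1 −9356 and −37880 and Cxcl2 −6274 and −5273. After LPS they were Cxcl1 −38076 and −14461 and Cxcl2 −6303, while only CD45.2 lists held Cxcl2 −5210 and −464. The fold changes and p-values of the sums are not independent of that.

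The widest single difference was an intergenic site at −6274 bp from the Cxcl2 start site, between Cxcl1 and Cxcl2. In untreated mice it had 44.8, 35.1 and 66.4 normalized tags in CD45.1 and 0, 0 and 1.62 in CD45.2. It was open in each grafted library and close to empty in host microglia. The CD45.2 libraries held only 2.0 tags in all, and the ratio of pooled tags was 75.2, with a 95% exact interval of 20.4 to 626 that covers counting error only and takes tags as independent, although the removal of duplicate reads is not given in the sources used here (adjusted p = 2.22e-07). After LPS the site, at −6303 in that table, had 38.4, 47.6 and 52.8 tags in CD45.1 and 3.50, 1.74 and 1.78 in CD45.2. The pooled ratio was 22.2 (interval 10.5 to 56.3, adjusted p = 3.21e-09). In both conditions 3 CD45.1 peak lists and no CD45.2 list held a peak at this site. The site was thus listed only through the population where it was higher. Its ratios and p-values are not independent of that.

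At the Cxcl2 promoter the untreated libraries had 45.7, 33.8 and 64.8 tags in CD45.1 and 24.6, 10.1 and 16.6 in CD45.2, so that the groups did not overlap (log2 fold change 1.58, SE 0.39, adjusted p = 7.18e-04). Without the CD45.2 library of replicate 5 the adjusted p was 0.0518. After LPS it had 98.6, 86.8 and 96.7 against 25.4, 29.7 and 22 tags, a log2 fold change of 1.90 (SE 0.28, adjusted p = 9.41e-09). A second promoter peak at −464, seen in the LPS table, had 29.9, 35.2 and 26.4 against 9.63, 14.8 and 12.8 tags and missed the threshold (adjusted p = 0.0521). The peaks at −5040 and +5268 had log2 fold changes of 0.23 and 0.02 in untreated mice, and neither passed the test.

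Cxcl1 had no peak within 1000 bp of its start site in either table. Its differences lay at distal sites. The peak at −9356 had 20.1, 10.5 and 28.9 tags in untreated CD45.1 and 0, 0.774 and 2.03 in CD45.2, with 3.5 raw tags in the CD45.2 libraries together and a pooled ratio of 15.2 (interval 5.65 to 57.7, adjusted p = 2.09e-04). After LPS it had 25.5, 33.3 and 36.3 against 3.50, 3.92 and 10.4 (log2 fold change 2.27, SE 0.51, adjusted p = 5.11e-04). The peak at −37880 had 24.7, 25.6 and 24.5 against 7.37, 3.10 and 4.46 untreated tags (log2 fold change 2.43, SE 0.56, adjusted p = 3.15e-04). In untreated mice 3 CD45.1 peak lists and no CD45.2 list held a peak at −9356, and likewise at −37880. Both were thus listed only through the population where they were higher, and their untreated differences and p-values are not independent of that. The peak at −29187 was merged only in the LPS table, with 21, 41.7 and 32.1 against 8.76, 8.72 and 4.16 tags (log2 fold change 2.20, SE 0.50, adjusted p = 6.88e-04), although 3 of 3 untreated CD45.1 peak lists also held a peak there. The untreated peaks at −14212 and +3192 passed narrowly (log2 fold change 1.10 and 1.40, adjusted p = 0.0483 and 0.0337), and did not pass when any library other than CD45.2 replicate 4 was left out (adjusted p up to 0.277 and 0.246).

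**Figure D1:**
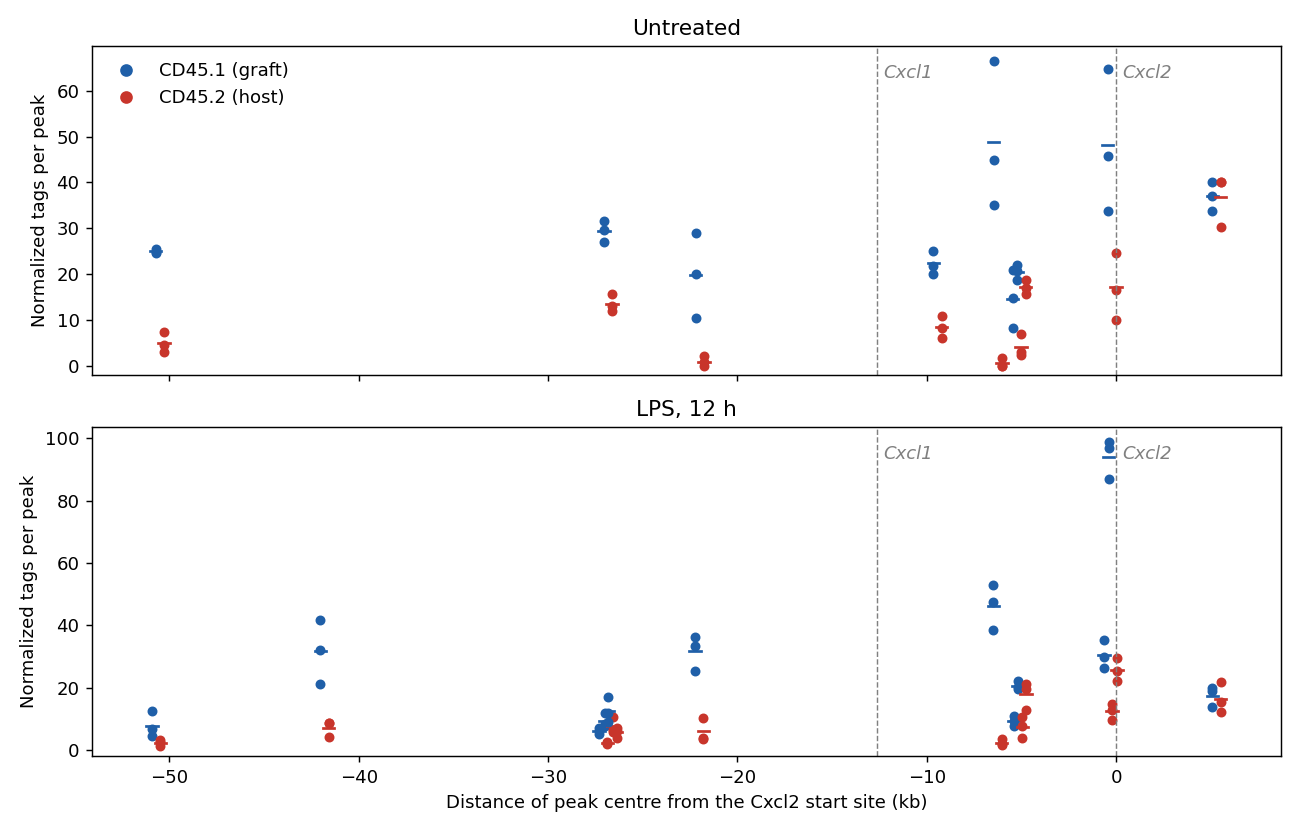
Normalized tags per peak (vertical axis, each condition on its own scale) against the distance of the peak centre from the Cxcl2 start site in kb, for the peaks of Cxcl1 and Cxcl2. Points are libraries, bars are means of 3, and the CD45.1 and CD45.2 libraries are drawn slightly to the left and right of the peak. The CD45.1 libraries sit above the CD45.2 libraries at the −6274 site and at the promoter of Cxcl2, and overlap them at +5268.

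Because Cxcl1 and Cxcl2 are made by many myeloid cells, neutrophil markers were read beside them. Of 7 markers 3 had a peak in the untreated table, with summed levels of 106 to 120 tags in CD45.1 and 53.3 to 88.3 in CD45.2. Retnlg was higher in CD45.1 (74.8 ± 15.1 against 4.34 ± 3.37 tags, SD, n = 3) and S100a9 was higher in CD45.2, while S100a8, Ly6g, Mpo and Cxcr2 had no peak. After LPS 6 of 7 had a peak, 5 were tested and none of these passed. Retnlg held too few tags to be tested (5.20 ± 3.44 in CD45.1 against 0.538 ± 0.305 in CD45.2, SD, n = 3). The sums over the 6 were 37.7 to 62.6 in CD45.1 and 56.4 to 85.4 in CD45.2. The sort took CD11b+ cells negative for Ly6C and Ly6G, a gate meant to leave out neutrophils, and no purity value was read here. The part of these markers in the result was not tested. In sorted bulk cells, a smaller share of cells with an open site and a site less open in each cell cannot be told apart.

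In untreated mice the chemokine peaks leaned towards grafted cells. Of the 42 peaks tested, 12 were higher in CD45.1 and 0 in CD45.2 at an adjusted p under 0.05, where 8.54% and 6.32% of all 59170 tested peaks passed in those directions. At an unadjusted p under 0.05, 16 of 42 passed in either direction, beside 23.7% of all peaks. The median log2 fold change over the members was 0.47, against 0.00084 over all peaks, and 33 of 42 were positive, beside 50.1% of all peaks. Cxcl1 and Cxcl2 gave 6 of the 12, and the other 8 genes gave 6 of 33. Among the 12, Cxcl2 −6274, Cxcl1 −9356 and −37880 and Ccl7 −3715 were listed in untreated mice only through CD45.1. The count is therefore not independent of how these peaks became members. Promoter peaks gave 1 of 8, at Cxcl2, and sites beyond 1000 bp 11 of 34. The shares over all promoter peaks and over all distal peaks were not computed, so this split is not shown to be particular to these genes. Without CD45.2 replicate 4 there were 10 higher in CD45.1 and 1 in CD45.2 (all peaks, 8.15% and 5.51%). The count fell to 6 without CD45.1 replicate 6, to 5 without CD45.2 replicate 5 and to 7 without CD45.2 replicate 6, where 6.13%, 4.95% and 5.95% of all peaks passed in that direction. With edgeR 16 were higher in CD45.1 and 1, at Ccl2 −2765, in CD45.2, beside 12.2% and 10.7% of all peaks. By gene sum 4 of 10 were higher in CD45.1 and 0 in CD45.2, where 7.35% and 7.46% of 16174 genes passed.

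After LPS fewer chemokine peaks separated the populations. Of 38 tested, 4 were higher in CD45.1, all at Cxcl1 or Cxcl2, and 1, at Ccl5, was higher in CD45.2, where 4.08% and 2.38% of 49180 peaks passed. Of these calls, Cxcl2 −6303 was listed after LPS only through CD45.1 and Ccl5 −19791 only through CD45.2. The median log2 fold change was 0.18 over the members and −0.0077 over all peaks. A pair of weak Cxcl1 peaks, at −38076 and −14461, held too few tags to be tested. At an unadjusted p under 0.05, 10 of 38 passed in either direction, beside 15.5% of all peaks. By gene sum 2 of 10, Cxcl1 and Cxcl2, were higher in CD45.1 and 0 in CD45.2, where 4.08% and 2.98% of 15722 genes passed. The LPS libraries were shallower, so a smaller count does not show that the populations were more alike.

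**Figure D2:**
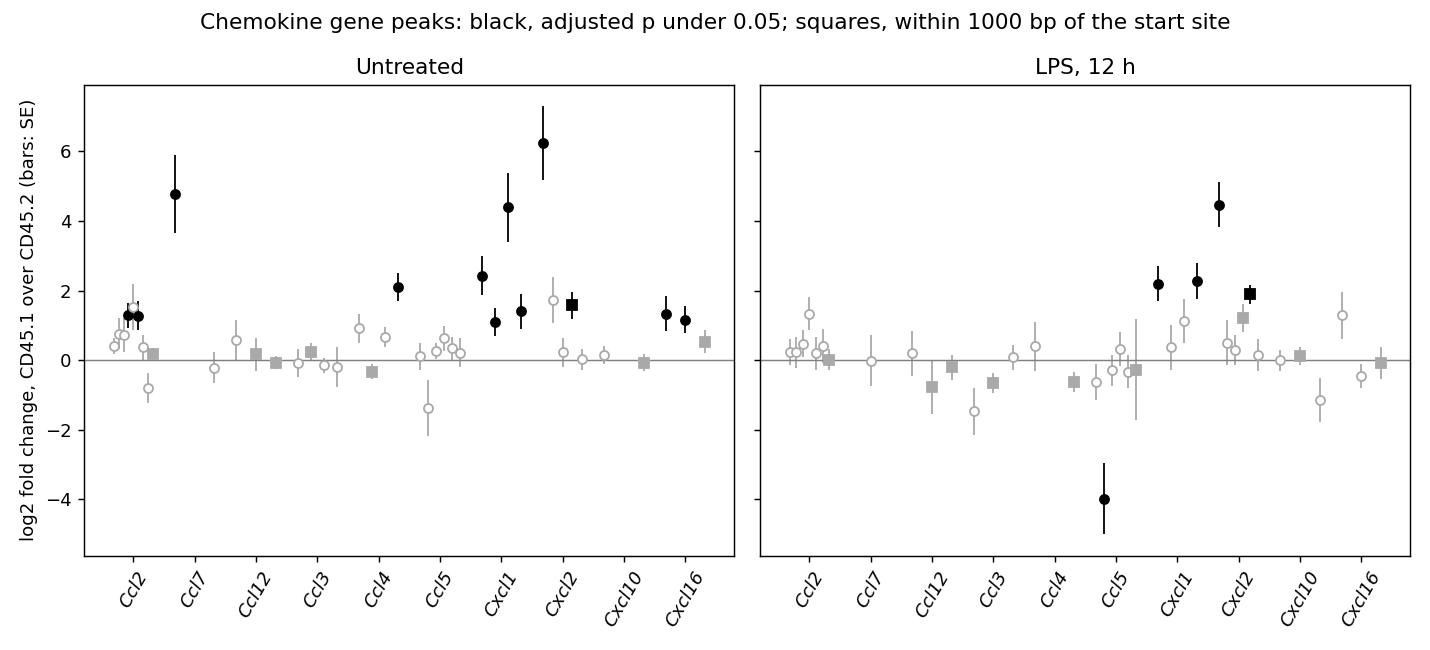
Log2 fold change of CD45.1 over CD45.2 (vertical axis, bars are SE) for each tested chemokine peak, ordered by position within its gene, in untreated mice (left) and after LPS (right). Black points passed an adjusted p under 0.05, and squares lie within 1000 bp of a start site. In the untreated panel the 12 black points are all above 0, and after LPS 4 are above and 1, at Ccl5, is below.

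The monocyte attractants Ccl2, Ccl7 and Ccl12 lie together on chromosome 11. Neither the Ccl2 nor the Ccl12 promoter passed the test. The Ccl2 promoter had 123, 125 and 134 tags in untreated CD45.1 and 102, 122 and 110 in CD45.2 (log2 fold change 0.18, SE 0.18, adjusted p = 0.664), and after LPS 49.3, 34.6 and 39.2 against 34.2, 46.7 and 39.2 (0.02, SE 0.31). The Ccl12 promoter had 84.9, 104 and 106 against 88.5, 109 and 107 untreated tags, and its log2 fold change was −0.07 (SE 0.20). After LPS the Ccl12 promoter had 38.4, 27.4 and 20.3 against 37.7, 36.6 and 27.3 tags. The libraries of the populations overlapped at the Ccl12 promoter in both conditions and at the Ccl2 promoter after LPS.

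Upstream of Ccl2, a pair of distal sites was higher in untreated grafted cells. The site at −20300 had 44.8, 37.0 and 80.6 tags in CD45.1 and 27.9, 15.1 and 24.3 in CD45.2 (log2 fold change 1.29, SE 0.36, adjusted p = 0.00465), though without CD45.1 replicate 6 or CD45.2 replicate 5 it did not pass (adjusted p = 0.151 and 0.123). The site at −12763 had 28.9, 23.3 and 57.2 against 10.7, 19 and 14.2 (1.28, SE 0.43, adjusted p = 0.0223), and adjusted p was 0.360 without CD45.1 replicate 6 and 0.0592, 0.0624 and 0.128 without CD45.2 replicate 4, 5 and 6. After LPS the same sites had log2 fold changes of 0.48 and 0.21 and did not pass. The Ccl2 gene sum was 369, 394 and 521 against 252, 368 and 325 untreated tags (0.43, SE 0.15, adjusted p = 0.0354, but 0.367, 0.263 and 0.135 without CD45.1 replicate 6, CD45.2 replicate 4 or CD45.2 replicate 6). With peaks within 20 kb only, it was 0.24 (adjusted p = 0.507), and scaled to total tags adjusted p was 1.00. The lowest CD45.1 and the highest CD45.2 library differed by under 1 tag (368.9 and 368.4).
Ccl7 had no promoter peak. Its site at −3715, between Ccl2 and Ccl7, had 15.4, 11.9 and 27.2 tags in untreated CD45.1 against 1.64, 0.774 and 0 in CD45.2. The CD45.2 libraries held 2.0 tags together, and the pooled ratio was 27.9 (interval 7.37 to 236, adjusted p = 4.22e-04). The 3 untreated CD45.1 peak lists and no CD45.2 list held it, and no LPS list did. The Ccl7 site was thus listed only through the population where it was higher, and its ratio and p-value are not independent of that.

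At Ccl3 and Ccl4, neighbouring genes on chromosome 11, the called difference lay at a distal Ccl4 site. The peak 13310 bp past its start site had 46.2, 37.4 and 53.9 tags in untreated CD45.1 and 9.01, 13.9 and 8.52 in CD45.2 (log2 fold change 2.10, SE 0.40, adjusted p = 6.80e-06), and it has no counterpart in the LPS table. The Ccl4 promoter had 83.0, 83.1 and 96.9 against 98.3, 129 and 99.0 tags, a non-overlapping difference the other way that did not pass (−0.32, SE 0.20, adjusted p = 0.365). The Ccl3 promoter was close in untreated libraries, with 66.7, 50.7 and 74.6 against 60.6, 49.9 and 55.6 tags. After LPS it had 51.3, 32.6 and 34.0 in CD45.1 and 55.2, 66.3 and 65.0 in CD45.2, which did not overlap. That difference missed the threshold in DESeq2 (log2 fold change −0.66, SE 0.29, adjusted p = 0.194) and just passed in edgeR (adjusted p = 0.0497).

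Ccl5, which recruits T cells and monocytes, gave the 1 chemokine peak that DESeq2 called higher in host microglia, where edgeR called 3 after LPS and 1 untreated. The site at −19791 had 9.63, 14.8 and 18.7 tags in CD45.2 after LPS and 1.21, 0 and 0.944 in CD45.1, with 2.5 raw CD45.1 tags in all. The pooled ratio of CD45.2 over CD45.1 was 16.2 (interval 5.26 to 81.0, adjusted p = 0.00324). After LPS 2 CD45.2 peak lists and no CD45.1 list held the site. It was thus listed only through the population where it was higher, and the ratio and p-value are not independent of that. In untreated mice the site at −19794 had 2.33, 5.02 and 3.27 tags in CD45.1 and 2.46, 10.1 and 13 in CD45.2, which overlapped (adjusted p = 0.312). The Ccl5 promoter peak, seen only after LPS, had 15.0, 3.91 and 5.19 against 0.876, 3.05 and 25.2 tags, so 1 library of each population carried most of it.

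Cxcl10, the interferon-induced ligand, did not pass the test in either table. Its untreated sums were 132, 121 and 98.7 in CD45.1 and 114, 120 and 116 in CD45.2. After LPS they were 111, 113 and 129 against 127, 91.8 and 136 tags, and the SE of the log2 fold change was 0.19 untreated and 0.21 after LPS, with a sign that varied between alternatives. Cxcl16, in contrast, was higher in untreated grafted cells, with 94.2, 93.6 and 112 against 67.2, 46.9 and 53.6 tags (0.86, SE 0.23, adjusted p = 0.0020, and 0.0728 without CD45.2 replicate 5 and 0.160 scaled to total tags). Its sites at −8013 and −8156, next to each other, passed at adjusted p = 0.0239 and 0.0477. Neither passed without CD45.1 replicate 4 or 6 or CD45.2 replicate 5 or 6, and the −8156 site missed whichever library was left out (adjusted p up to 0.195 and 0.358). After LPS the Cxcl16 sums were 73.7, 48.3 and 55.2 against 55.5, 55.1 and 72.6, which overlapped (−0.06, SE 0.27). Whether the Cxcl16 difference changed with treatment was not tested for the sums. No Cxcl16 peaks met the overlap of at least 50% between tables, but a pair of them were matched by any overlap, under which the interaction was called at 0 of 31 chemokine peaks. At −8013 the difference of log2 changes was −1.60 (SE 0.47, adjusted p = 0.127), and at the promoter −0.54 (SE 0.50, adjusted p = 0.983).

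**Figure D3:**
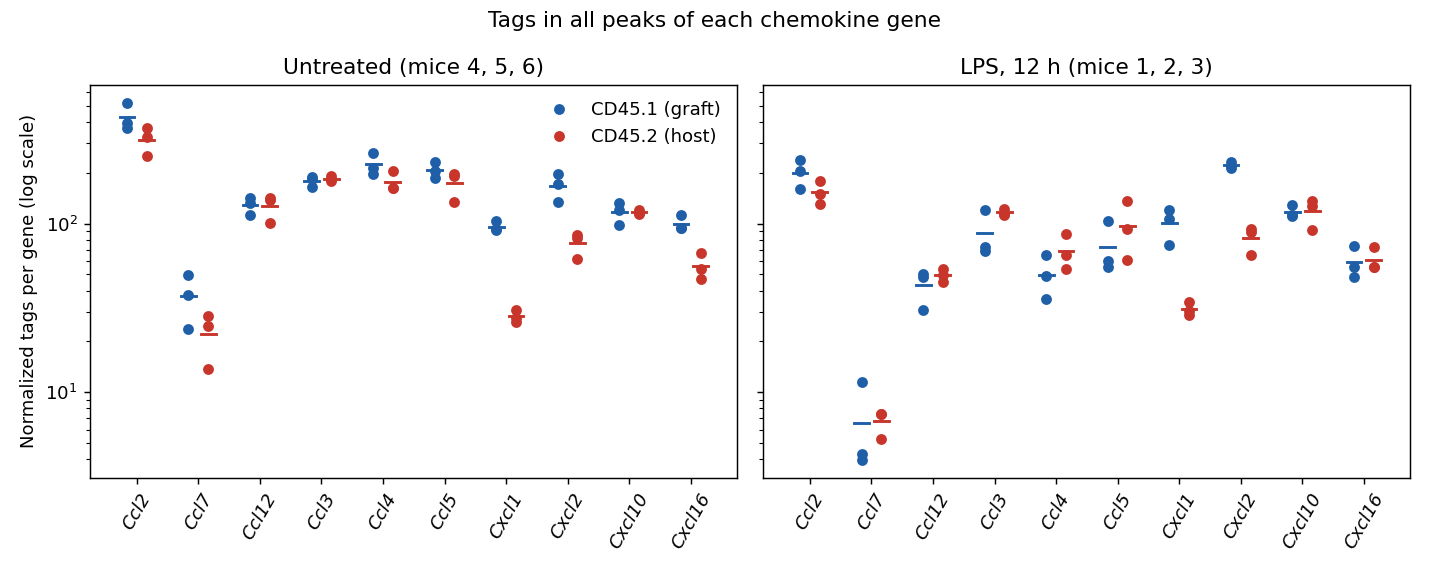
Normalized tags summed over all peaks of each gene (vertical axis, log scale) in every library, untreated (left) and after LPS (right). Points are libraries and bars are means of 3. Cxcl1 and Cxcl2 separate the populations in both panels, Cxcl16 and, narrowly, Ccl2 in the untreated panel, and Cxcl10 in neither.

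To ask how each population responded to LPS, 24 chemokine peaks were matched between the tables and tested in 1 model over the 12 libraries, in which all values below are on a common scale. Treatment and table go together, since each table was merged and counted separately and its peaks were wider after LPS (median 167 against 132 bp), so the treatment cannot be told apart from the table. In CD45.1, 6 of 24 peaks were higher after LPS and 1 lower, where 12.5% and 7.41% of 39235 matched peaks passed. In CD45.2, 8 were higher and 0 lower, where 11.6% and 5.01% passed, and at an unadjusted p under 0.05 there were 10 and 11 of 24 in either direction, beside 32.3% and 28.3% of all matched peaks. Scaled to total tags 3 and 3 were higher (all matched peaks, 5.38% and 5.20%), the calls at the Cxcl2 promoter and Cxcl1 −9356 holding in both populations. Without CD45.1 LPS replicate 3 the CD45.1 count was 3 (8.28% of all), and without CD45.2 untreated replicate 5 the CD45.2 count was 5 (7.54% of all).

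The Cxcl2 promoter opened in both. It went from 30.5, 22.7 and 42.6 tags to 143, 129 and 143 in CD45.1 and from 16.3, 6.85 and 11.3 to 36.6, 43.0 and 32.4 in CD45.2. No LPS library overlapped an untreated one of the same population, and the log2 changes were 2.12 (SE 0.25, adjusted p = 8.14e-15) and 1.79 (SE 0.33, adjusted p = 2.81e-06). The Cxcl1 site at −9356 went from 13.4, 7.04 and 19 to 36.9, 49.6 and 53.9 in CD45.1 and from 0, 0.527 and 1.37 to 5.04, 5.69 and 15.3 in CD45.2 (adjusted p = 1.58e-04 and 7.03e-04). The Cxcl2 −6274 site rose in CD45.1 from 29.9, 23.6 and 43.7 to 55.7, 70.9 and 78.3 (log2 change 1.08, SE 0.31, adjusted p = 0.00552, but 0.0602 without untreated replicate 5 and 0.0755 without LPS replicate 3), and in CD45.2 went from 0, 0 and 1.10 to 5.04, 2.53 and 2.63 (adjusted p = 0.0789). After LPS, host microglia were still below untreated grafted cells at this site, 3.40 ± 1.42 against 32.4 ± 10.3 (SD, n = 3).

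The Cxcl10 promoter rose in both populations, from 48.5, 37.4 and 35.8 to 89.1, 92.3 and 96.5 in CD45.1 (log2 change 1.19, SE 0.22, adjusted p = 3.84e-06) and from 45.7, 40.6 and 44.0 to 98.4, 65.1 and 90.6 in CD45.2 (0.96, SE 0.22, adjusted p = 3.53e-04). Its upstream site at −4887 rose as well (0.89 and 1.01, adjusted p = 0.00471 and 0.00109). Divided by peak width, the promoter change in CD45.2 and the −4887 change in both no longer passed (adjusted p = 0.284, 0.222 and 0.114). The −4887 change also missed without LPS replicate 3 in CD45.1 (0.0648) or in CD45.2 (0.0828). Cxcl2 −5040 also rose in both (log2 change 1.18 and 1.07, adjusted p = 0.00783 and 0.0285). It missed in CD45.1 without LPS replicate 3 (0.0553), and in CD45.2 when any CD45.2 library other than LPS replicate 3 was left out (adjusted p up to 0.142).

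Host microglia rose at the Ccl3 promoter, from 40.3, 34.0 and 37.6 to 79.5, 96.0 and 95.8 (log2 change 1.33, SE 0.24, adjusted p = 8.44e-07), while CD45.1 had 44.5, 34.0 and 49.1 and then 74.4, 48.6 and 50.4 (0.47, SE 0.24, adjusted p = 0.154). In CD45.2 the Ccl5 −19794 site (1.82, SE 0.55, adjusted p = 0.00956) and the Ccl2 −20300 site (1.19, SE 0.36, adjusted p = 0.00996) were also higher. Only CD45.2 lists held the Ccl5 site in either condition, and its untreated CD45.2 values were low (1.63, 6.85 and 8.79 tags). The Ccl2 site missed without untreated replicate 5 or LPS replicate 1 (0.116 and 0.0985), and DESeq2 gave the Ccl5 site no adjusted p without some single libraries. A site of Ccl5 at −13937 was lower in CD45.1 (−0.94, SE 0.31, adjusted p = 0.0157), and missed without untreated replicate 6, LPS replicate 2 or LPS replicate 3 (0.0833, 0.112 and 0.152). The Ccl2 promoter had log2 changes of −0.46 and −0.34 that did not pass.

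No matched chemokine peak was shown to respond differently in the populations. The interaction passed for 0 of 24 peaks in DESeq2 and 0 in edgeR at an adjusted p under 0.05, where 0.0178% of matched peaks passed with a change from untreated to LPS that was more positive in CD45.1 and 0.224% with one more positive in CD45.2. At an unadjusted p under 0.05 the DESeq2 Wald test gave 3 of 24, beside 5.33% of all matched peaks, namely the Ccl3 promoter (difference of log2 changes −0.85, adjusted p = 0.650), Ccl5 −19794 (−2.55, with no adjusted p from DESeq2) and Cxcl1 −9356 (−2.08, adjusted p = 0.893), each with the more positive change in CD45.2. A change that passed in 1 population and not in the other is therefore not shown to differ between them.

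**Figure D4:**
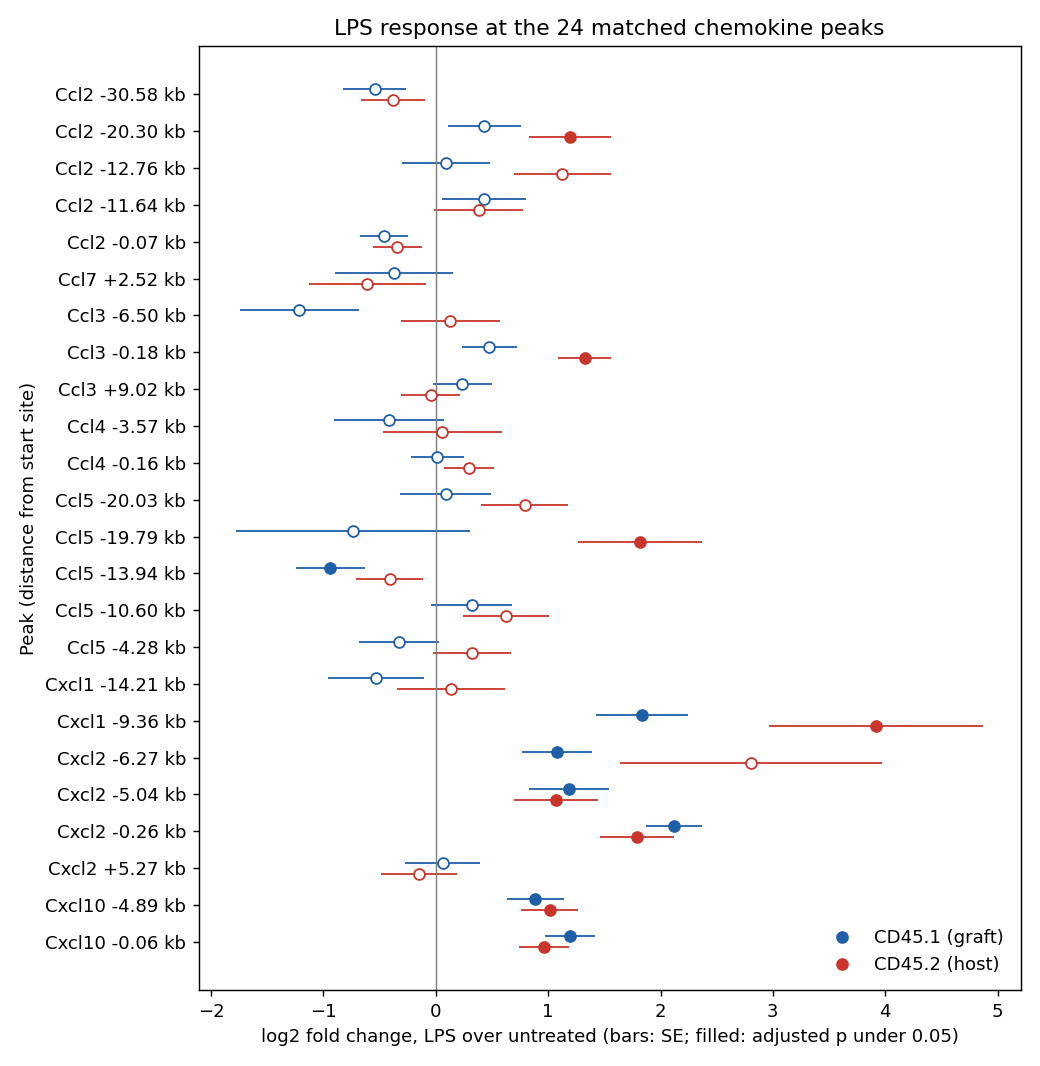
Log2 fold change of LPS over untreated (horizontal axis, bars are SE) at the 24 matched chemokine peaks in each population. Filled points passed an adjusted p under 0.05, which 6 CD45.1 and 8 CD45.2 peaks did in the upward direction and 1 CD45.1 peak, Ccl5 −13937, in the downward direction.

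Of 25 other chemokine ligands, 16 had a peak in untreated mice, with 5 higher in CD45.1 and 1 in CD45.2, where 7.35% and 7.46% of all genes passed. Pf4, a platelet and macrophage chemokine, was higher in CD45.1 (56.4 ± 7.66 against 13.8 ± 1.93 tags, SD, n = 3, log2 fold change 2.04), as was Cxcl3, a neutrophil attractant like Cxcl2 (30.3 ± 9.70 against 12.6 ± 7.24, 1.25). Ccl24, Ccl27a and Cxcl5 were higher by 0.95, 0.67 and 0.62. Cxcl13, a B cell attractant, went the other way, 75.6 ± 26.8 against 210 ± 8.80 tags (−1.46, SE 0.20, adjusted p = 6.83e-11). After LPS, of 17 tested, Cxcl5 was higher in CD45.1 (0.75) and Cxcl13 in CD45.2 (−1.61, SE 0.19, adjusted p = 6.99e-15), where 4.08% and 2.98% of all genes passed. Ccr1, a receptor of Ccl3 and Ccl5, was higher in untreated CD45.1 (107 ± 25.3 against 58.7 ± 6.01 tags, SD, n = 3, log2 fold change 0.84, SE 0.23) and did not pass after LPS (0.17, SE 0.27).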

How the data were processed

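ATAC-seq libraries from CD45.1 and CD45.2 brain macrophages of bone marrow chimeras (3 libraries of each population untreated and 3 after LPS) were analysed. Per the submitters' processing notes, bcl2fastq 2.17.1.14, Bowtie2, Picard 1.108 and HOMER were used on mm9. Per the file headers, peaks were called in each library with HOMER findPeaks. The coordinates of the listed peaks were used here to see which lists held a site, and the scores deposited with them were not used. Any shift of read ends for the transposase, the role of Picard and the removal of duplicates are not given in the sources used here, so duplicates may be among the tags. The authors merged the 6 lists of each treatment, named the nearest gene and deposited unnormalized tags per merged peak, which are estimated counts in steps of 0.5 tag and were rounded here.

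DESeq2 1.42.0 was run in R 4.3.3 (Wald test, median-of-ratios scaling, peaks with over 10 tags in at least 1 library), per table for CD45.1 against CD45.2 and over 12 libraries for matched peaks (reciprocal overlap of at least 50%, 39390 pairs, 24 of chemokines). A call is a Benjamini-Hochberg adjusted p under 0.05. Gene sums add all peaks of a gene. Normalized tags are tags divided by the size factor of the fit in question. Alternatives were edgeR 4.0.16 with TMM, total-tag scaling, other filters, a limit of adjusted p under 0.01 and over 4-fold, a block by replicate number, leaving out each library, peaks within 20 kb, any-overlap matching and division by peak width. Statistical steps were tested on simulated data.

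The titles give both populations the same replicate numbers, but no source used here says that a number is 1 animal, nor that replicates are separate animals; p-values then measure the spread between these libraries. The named peaks are those with an adjusted p under 0.05 in either table, the promoter peak of each gene and matched peaks with a called interaction; of other listed genes at most 6 per list with an adjusted p under 0.05. Other sites named were chosen after their values were seen. Members and lists (other ligands and cell type markers, with Ccr1 from a receptor list that is not reported here as a whole) were chosen with earlier results of these data known. Intervals cover counting error only. Exons for the printed windows are from GENCODE vM1.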

Additional observations from a re-analysis of the deposited data

How the results depend on the processing

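Of 65 named genes and peaks, 38 passed the threshold. None of these reversed under an alternative, and 20 passed in every alternative that gave a value. The fold limit is not among these alternatives, since it was applied to counts of peaks only. Untreated peaks higher in CD45.1 numbered 7 when scaled to total tags, 6 with a mean of at least 20 tags and 7 with the replicate block, against 12. Of all peaks, 5.67%, 6.42% and 5.96% then passed, against 8.54%. With adjusted p below 0.01 and over 4-fold the chemokine peaks numbered 5, and the share over all peaks was not computed for that limit. With edgeR 1 was higher in CD45.2 (10.7% of all peaks), against 0. LPS peaks higher in CD45.1 numbered 2, against 4, with a mean of at least 20 tags, and those higher in CD45.2 numbered 3 with edgeR and 0 with that filter, against 1, where 16 peaks were left to test. Of all peaks, 2.80% were higher in CD45.1 with that filter. Those higher in CD45.2 made up 4.67% with edgeR and 1.53% with the filter. Untreated gene sums higher in CD45.1 numbered 2, against 4, when scaled to total tags (all genes, 2.37%, against 7.35%). Matched peaks higher after LPS numbered 3 when scaled to total tags and 1 with the fold limit in CD45.1, against 6, and 3 and 1 in CD45.2, against 8. Scaled to total tags, 5.38% and 5.20% of all matched peaks were higher in CD45.1 and CD45.2. Those lower numbered 3 with edgeR, 0 with total-tag scaling, 4 divided by peak width and 0 with the fold limit in CD45.1, against 1, and 1 divided by peak width in CD45.2, against 0. Of all matched peaks, 12.1% with edgeR, 2.05% with total-tag scaling and 17% divided by width were lower in CD45.1. In CD45.2 the share lower was 12.3% divided by width. The cause was not tested, beyond the fewer peaks tested under the stricter filter.

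Leaving out each library gave 5 to 10 untreated peaks higher in CD45.1 and 0 to 1 in CD45.2, 4 to 5 and 1 to 1 LPS peaks, 3 to 4 and 0 untreated genes, 2 and 0 LPS genes, 3 to 6 higher and 0 to 2 lower in CD45.1 after LPS, 5 to 9 and 0 in CD45.2, and 0 interactions. Of all features, 4.95% to 8.15% of untreated and 1.76% to 3.15% of LPS peaks were then higher in CD45.1. For genes these shares were 4.65% to 5.80% and 1.96% to 4.92%. Peaks higher in CD45.2 made up 3.42% to 5.51% untreated and 1.17% to 1.59% after LPS. Of all matched peaks, 8.28% to 12.8% were higher and 2.87% to 7.49% lower in CD45.1 after LPS, and 7.54% to 11.7% higher in CD45.2. With the replicate number as a block, the 5 untreated peaks lost were Ccl2 −12763, Cxcl1 −14212 and +3192 and Cxcl16 −8013 and −8156 (adjusted p = 0.0988, 0.198, 0.134, 0.131 and 0.141); the Ccl2 sum was also lost (0.0631), and no other call changed. Over all peaks 5.96% were then higher in untreated CD45.1. Correlations of same-number deviations from group means were 0.081, 0.082 and 0.087 untreated, where each library correlated best with its own number, and −0.066, 0.061 and 0.149 after LPS, where not all did. The LPS response could not be blocked, since the numbers differ between treatments.

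Total-tag scaling moved the median of all LPS peaks from −0.0077 to 0.14, and the share of LPS gene calls higher in CD45.1 from 57.8% to 68.9%. Division by peak width moved the median of all matched peaks to −0.27 in both populations and the share of calls that were higher from 62.8% to 24.7% in CD45.1 and from 69.9% to 31.9% in CD45.2. Values that changed sign had no call: after LPS the Ccl2 promoter (−0.0099, mean filter), Ccl5 promoter (0.58, replicate block), Ccl7 sum (−0.20, block), Cxcl10 sum (0.0038 edgeR, 0.13 total tags, 0.0075 block, 0.0096 within 20 kb), Cxcl16 sum (0.080) and Cxcl16 promoter (0.088, both total tags), and untreated the Ccl12 sum (−0.0085 edgeR, −0.011 total tags, −0.0022 mean filter, −0.00058 within 20 kb) and Cxcl10 sum (−0.0048 mean filter, −0.0079 block, −0.0026 within 20 kb). With each library left out, LPS values ranged over −0.33 to 0.017 (Ccl12 sum), −0.48 to 0.0080 (Ccl12 promoter), −0.13 to 0.14 (Ccl2 promoter), −0.996 to 1.95 (Ccl5 promoter), −0.75 to 0.28 (Ccl7 sum), −0.17 to 0.13 (Cxcl10 sum), −0.040 to 0.21 (Cxcl10 promoter), −0.25 to 0.096 (Cxcl16 sum) and −0.44 to 0.16 (Cxcl16 promoter). Untreated values ranged over −0.12 to 0.11 (Ccl12 sum), −0.15 to 0.037 (Ccl12 promoter), −0.082 to 0.019 (Ccl3 sum), −0.087 to 0.11 (Cxcl10 sum) and −0.21 to 0.014 (Cxcl10 promoter).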
